A study of Mus musculus with 15 samples.

Results

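The comparison set bone marrow cells labelled Neutrophil against ProNeut, a population whose label joins it to the neutrophil lineage, by the rank each gene held within its own library. It used 6 of 15 RNA sequencing libraries, 3 labelled Neutrophil and 3 labelled ProNeut_Neutrophil, shortened to ProNeut here. Genes were kept when they carried a symbol and had a deposited log2 CPM (reads scaled to the size of the library, on a log2 scale) above 3 in at least 3 of the 6 libraries, which left 7192 of the 14801 genes in the table. Healthy mice gave fresh bone marrow from which both populations were isolated by flow sorting, and the labels give no strain, age, sex or surface gate. The other libraries, used only as values set alongside, were 3 each of CMP, which stands for common myeloid progenitors, CD115plusGMP, which are granulocyte-monocyte progenitors with the colony-stimulating factor 1 receptor, and PreNeut_Neutrophil, shortened to PreNeut. The labels do not tell whether replicates were different mice, and p-values therefore cover library-to-library spread at most.

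Neutrophils form in the marrow from dividing precursors that make their granule proteins in an ordered sequence, with azurophilic (primary) granules first, specific (secondary) granules next and gelatinase granules last. Late precursors stop dividing, the nucleus becomes segmented, and the protein-making machinery is reduced. The mature cell keeps the receptors, the NADPH oxidase and the cytoskeleton it uses to find and kill microbes, and it can also express genes induced by interferons.

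In the libraries labelled Neutrophil, genes of cell division held far lower ranks than in ProNeut. Genes of ER folding, translation factors, the proteasome and nuclear genes of mitochondrial respiration were also lower, by less. Ribosome biogenesis and mitochondrial ribosomal proteins did not go one way. Cytosolic ribosomal proteins leaned lower, but their share called lower fell below that of all genes when genes overlapping the opposite strand were left out. Genes of specific granules and of the NADPH oxidase had family medians of 92.9 and 92.5 in Neutrophil and 99.6 and 99.2 in ProNeut, with single members far lower. Interferon-stimulated genes were the only family of 37 with at least 75% of its kept members on the higher side. Of its 22 kept members, 5 passed the filter only through Neutrophil. These statements are about order within a library. In bulk RNA, fewer cells of a type and less RNA per cell cannot be told apart.

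The libraries belong to sets of unlike make. Recovered reads were 887982, 1283806 and 1401958 for Neutrophil replicates 1 to 3, and 7493694, 9973168 and 13397126 for ProNeut. Of these, 63.5% to 69.5% of Neutrophil reads and 0.11% to 0.146% of ProNeut reads fell on 503 identifiers without a symbol, which were not ranked. A kept gene had a median of 5 to 14 reads in a Neutrophil library and 353 to 626 in a ProNeut library, and 19.4% to 29.3% of kept genes had 0 reads in a Neutrophil library. ND6, whose gene lies on the other strand of the mitochondrial genome from the other respiratory-chain genes, took 69.1% to 90.9% of the mitochondrially encoded reads in Neutrophil and 0.179% to 0.23% in ProNeut. Tsix, which is transcribed from the strand opposite to Xist, had 150, 222 and 203 reads in Neutrophil where Xist had 10, 7 and 2, and in ProNeut 7, 8 and 5 beside 2, 16 and 3. At both loci the Neutrophil reads thus fell mainly to the gene on the other strand from the usually abundant transcript. In ProNeut, Xist and Tsix both had few reads despite the greater depth, so that locus also differed in level. The labels give no sex, and whether the groups differ in sex was not tested. The strand setting of the counting is not given in the sources used here, and whether a Neutrophil count comes from the gene's own strand was not tested, which holds for every Neutrophil rank and every count of 0 below. CMP and CD115plusGMP shared these features with Neutrophil, and PreNeut with ProNeut, so the library set and the group cannot be told apart in this contrast. Neutrophil replicate 3 stood apart: the 12 neutrophil markers together took 48015 RPM there (reads scaled to each library's reads with a symbol), against 17024 and 9497 in replicates 1 and 2 and 210856 to 241949 in ProNeut.

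Ranks were percentiles from 0 to 100 over the kept genes, compared with limma, and a gene was called at a Benjamini-Hochberg adjusted p under 0.05 with a difference of at least 20 percentile points. By this rule 21.7% of kept genes were higher and 26.3% lower in Neutrophil, 47.9% in all, and the median difference over all of them was -8.24 points. With no threshold, 62.8% of genes lay below and 37.2% above, and the 3 libraries of one group did not overlap the 3 of the other for 71% of genes. A rank cannot fall far from a low start: 44.9% of genes with a mean ProNeut rank of 80 to 100 were called lower, and 0% of those ranked 0 to 20. Of the 7126 kept genes matched to the GENCODE M21 annotation, 2455 overlap an exon on the opposite strand by 50 bases or more. Among these 37% were called higher and 19.7% lower, against 12.7% and 30% of the 4671 others. Across the latter, Spearman's rho between a Neutrophil and a ProNeut library was 0.259 to 0.396, and across the former it was -0.246 to -0.0732, as a description over genes. When ranks were recomputed over the 4671 genes alone, 15.8% were called higher and 17.1% lower. Families described below are therefore also counted over these genes. Kept genes include 1309 that pass only through ProNeut and 990 that pass only through Neutrophil. Such a gene had to differ between the groups in passing the log2 CPM threshold, though not in rank. Counts over all genes with a symbol, without the filter on low values, are therefore given as well.

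**Figure D1:**
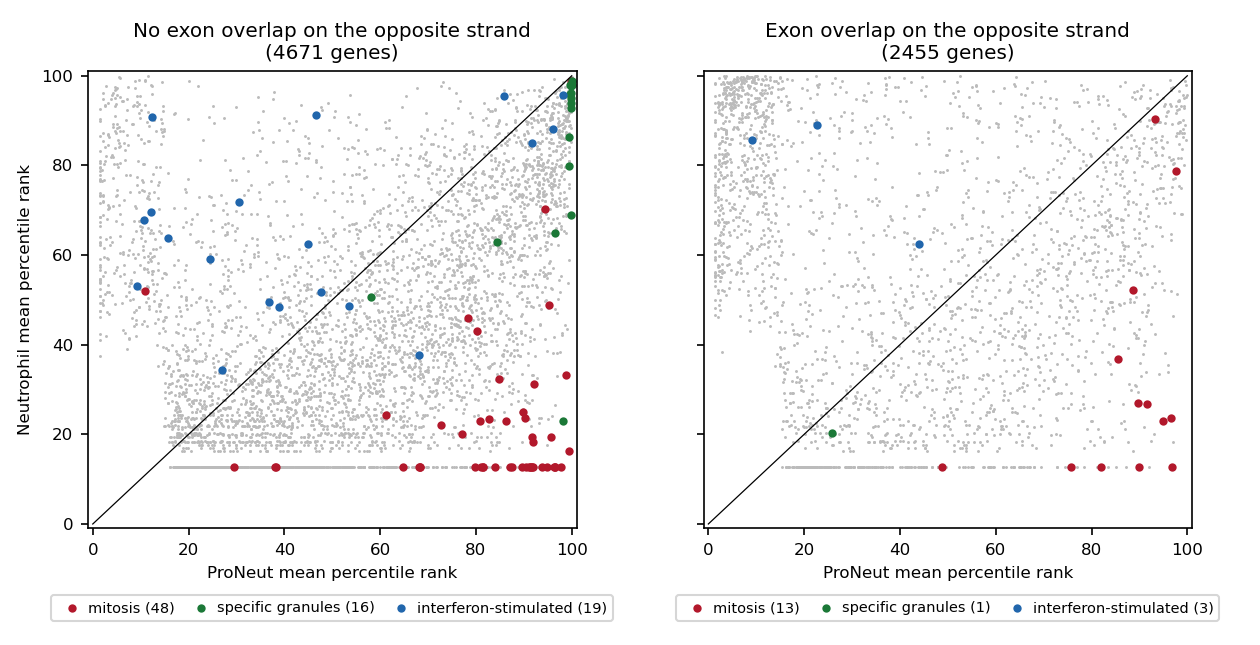
Mean percentile rank in the 3 Neutrophil libraries against that in the 3 ProNeut libraries, 1 grey point per kept gene, in panels for the 4671 genes without and the 2455 genes with exon overlap on the opposite strand. Coloured points are members of 3 families and the line marks equal rank. Mitosis genes lie at the lower right, many on the row of genes with 0 reads in every Neutrophil library, most specific granule genes lie towards the upper right corner, and most interferon-stimulated genes lie above the line.

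The labels were checked against neutrophil markers. S100a9, a subunit of the calcium-binding protein calprotectin, ranked 99.8, 99.5 and 100 in Neutrophil and 100 in each ProNeut library. Its ranks in the progenitors of the same library set as Neutrophil were 73.3 to 78.2 in CMP and 53.8 to 74.1 in CD115plusGMP. Both groups thus held it at the very top. Cxcr2, the receptor that draws mature neutrophils towards chemokines, ranked 97.0, 95.1 and 98.5 in Neutrophil, above the 92.0, 91.0 and 93.2 of ProNeut without overlap, and the difference of 4.78 ± 2.28 (SE, n = 3 and 3) was not called (limma adjusted p 0.121). Ly6g, the surface antigen used to recognise mouse neutrophils, went the other way. It ranked 14.7, 46.2 and 53.6 in Neutrophil, from 0, 4 and 16 reads, and 96.9, 96.6 and 97.2 in ProNeut, and fell by 58.8 ± 10.3 points (limma adjusted p 0.00428). Ly6g was thus lower in every library labelled Neutrophil, and the libraries did not overlap. The summed neutrophil markers nevertheless took 42.1 to 137 RPM in CMP and CD115plusGMP, below every library labelled Neutrophil.

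Cell division showed the widest gap. The mitosis family holds cyclins, spindle motors, kinetochore proteins and condensins, and 61 of its 62 members in the table were kept. Of these 54 were called lower in Neutrophil and 1 higher, with a median difference of -65.5 points beside -8.24 for all kept genes. Their median rank was 12.7 in Neutrophil and 89.8 in ProNeut. Because 36 of the 61 passed the filter only through ProNeut, further counts were taken: 19 of the 24 members above the threshold in some library of both groups were called lower, where 23.4% of all such genes were. Without any filter 50 of 62 were called lower, beside 15.2% of all genes with a symbol, and without genes overlapping the opposite strand 39 of 48 were.

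Kif11, the motor that pushes spindle poles apart, gave the largest fall among them. It had 0 reads in each Neutrophil library, which places a gene at rank 14.7, 13.7 and 9.69, and 3912, 6026 and 7898 reads in ProNeut, at ranks 97.5, 98.1 and 98.0. It fell by 85.1 ± 2.44 points (limma adjusted p 2.11e-06). Every gene with 0 reads in all Neutrophil libraries holds these same tied ranks. For such genes, here and below, the SE and p therefore carry no Neutrophil replicate spread of the gene itself. Top2a, the topoisomerase that untangles replicated chromosomes, had 0, 0 and 1 reads in Neutrophil and 9822, 13928 and 18117 in ProNeut. The kinetochore genes Cenpe and Cenpf, the condensin subunit Smc2, the spindle factor Tpx2, the cytokinesis regulator Racgap1 and Ube2c, which tags mitotic proteins for destruction, each had 0 reads in every Neutrophil library and ranked 93.1 or higher in every ProNeut library, and Ube2c shares exon with Tnnc2 on the opposite strand. These 8 genes were thus all but absent from the Neutrophil counts. Over the family, 32 of the 61 kept members had 0 reads in all Neutrophil libraries, as did 10.5% of all kept genes, and 0 reads in a library allow up to 3, which would be rank 41.3, 41.4 and 24.7.

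Mki67, the gene of the proliferation antigen Ki-67, stood apart and is named here after its values were seen. It ranked 99.2, 99.0 and 98.7 in Neutrophil and 99.8, 99.8 and 99.7 in ProNeut, a difference of -0.797 points. Mki67 alone made up 2384 of the 3065 mitosis reads in Neutrophil, 77.8%. The annotation has no exon on the opposite strand there, and whether these reads come from the Mki67 transcript or from the other strand was not tested. With it, the family took 2011 to 3167 RPM in Neutrophil and 16695 to 17832 in ProNeut, and without it 508 to 643 and 13847 to 14965. Pttg1, the securin that restrains the separation of sister chromatids, was the 1 member called higher. It ranked 78.9, 41.4 and 35.4 against 10.8, 10.7 and 11, and its call was lost when any 1 ProNeut library was left out.

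Windows of 90 bases from the 250 before the RefSeq start of 3 of these genes are shown because they carry the sequence TTTGAA, a core of the cell-cycle homology region through which many mitotic promoters are known to be repressed outside division. The sequences are RefSeq's for GRCm38.p6, 5′ to 3′ along the gene, with the match in capitals (TTCAAA is the same motif read from the other strand). They are chr19:37376292-37376381 on the plus strand for Kif11, chr11:99024190-99024279 on the minus strand for Top2a and chr2:164769839-164769928 on the plus strand for Ube2c.
Kif11: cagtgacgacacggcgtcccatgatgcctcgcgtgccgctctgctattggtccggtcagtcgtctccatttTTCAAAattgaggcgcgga
Top2a: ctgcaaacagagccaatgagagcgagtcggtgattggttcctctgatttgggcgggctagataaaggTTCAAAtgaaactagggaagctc
Ube2c: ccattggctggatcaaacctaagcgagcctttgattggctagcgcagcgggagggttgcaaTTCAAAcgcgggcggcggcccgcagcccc
Searched on both strands over the 250 bases before the start, TTTGAA was found for 19 of 51 mitosis genes with a RefSeq promoter (37.3%), against 18.3% of 27025 genes. Among members called in either direction it was found for 17 of 47 (36.2%). A match describes the letters only.

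DNA replication genes were lower as a family, less evenly. Of the 52 members that were measured, 42 were kept, with 24 called lower, 6 called higher and a median difference of -24.6 points. Of the 42, 21 passed the filter only through ProNeut. Of the 19 above the threshold in some library of both groups, 8 were called lower and 4 higher, beside 23.4% and 11.6% of such genes. Without the filter 30 of 52 were called lower and 4 higher, and without overlapping genes 13 of 28 and 1. Rrm1 and Rrm2, which together form the enzyme that makes deoxyribonucleotides, had 0 reads in every Neutrophil library. Rrm1 ranked 92.3, 93.3 and 93.8 in ProNeut, and fell by 80.4 ± 2.46 points, and Rrm2 ranked 90.7, 91.9 and 91.5, and fell by 78.7 ± 2.45. Mcm5, part of the replicative helicase, also had 0 Neutrophil reads against ProNeut ranks of 80.4, 84.5 and 81.2. Dnmt1, which copies DNA methylation to the new strand, ranked 59.4, 13.7 and 9.69 against 91.7, 92.2 and 91.5, the highest Neutrophil value being replicate 1 with 8 reads (limma adjusted p 0.00909).

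Among members called the other way, Pola2, a subunit of the polymerase that primes replication, ranked 94.0, 94.1 and 86.1 in Neutrophil and 17.8, 15 and 18.2 in ProNeut, a rise of 74.4 ± 3.16 points. It has no such overlap with the opposite strand. Gins2, a helicase cofactor, rose by 74.7 ± 3.69 points, and it overlaps exons of Gse1 on the opposite strand.

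In the progenitors of the same library set both families had higher median ranks than in Neutrophil. The median rank of mitosis genes was 64.8 in CMP and 54.4 in CD115plusGMP, and that of replication genes 77.1 and 64.9, beside 12.7 and 20.1 in Neutrophil. Against the mean of those progenitors, 48 of the 61 mitosis genes were called lower in Neutrophil and 1 higher, and 33 of the 42 replication genes lower and 1 higher, where 21.9% of kept genes were called lower and 20.9% higher. This contrast shares the Neutrophil libraries with the main one, so the 2 counts are not independent. In PreNeut the medians were 89.0 for mitosis and 76.3 for replication. Kif11 itself ranked 75.6 to 81.2 in CMP and 52.8 to 70.3 in CD115plusGMP, and Rrm1 93.8 to 94.8 in CMP.

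**Figure D2:**
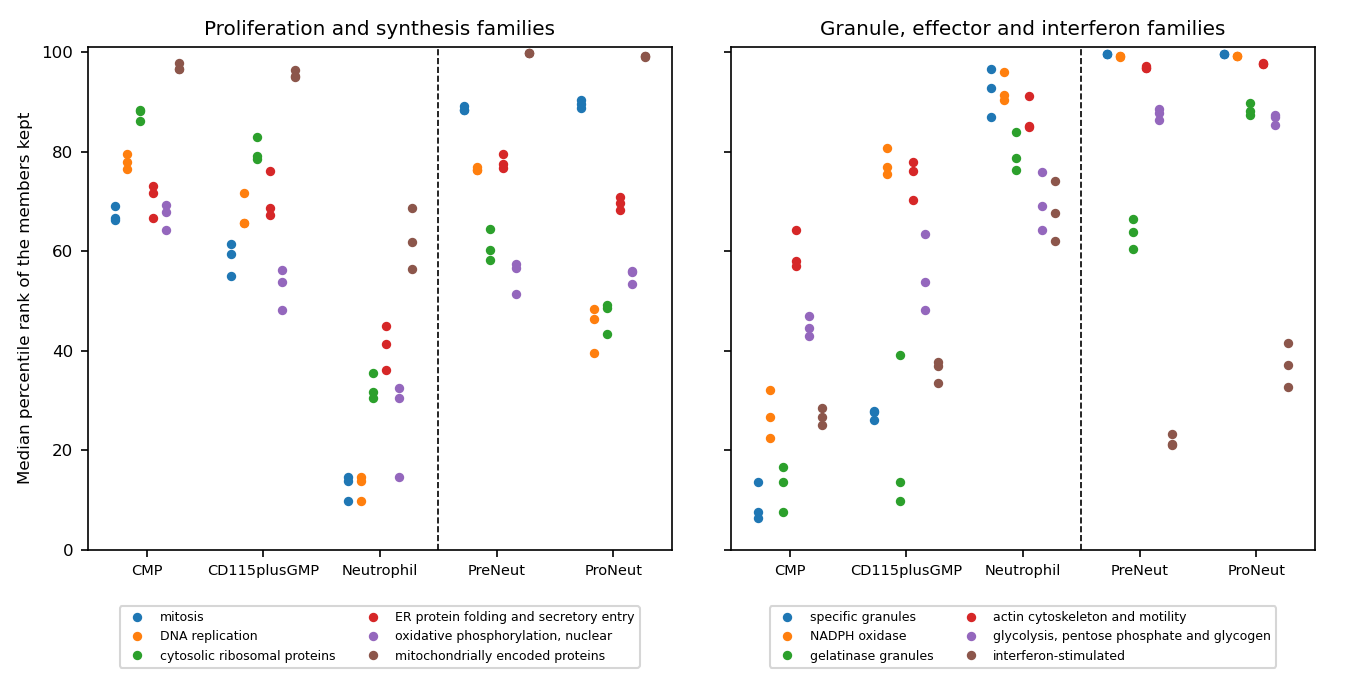
Median percentile rank of the kept members of 12 families in each of the 15 libraries, 1 point per library, with the dashed line between the library sets. Mitosis and replication medians lie near the rank of genes with 0 reads in the Neutrophil libraries and at 39.4 or higher in every other library, while specific granule, oxidase and gelatinase medians are high in Neutrophil and ProNeut and low in CMP.

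Most families of protein synthesis and secretion, though not all, had at least 75% of their kept members on the lower side. For ER protein folding and secretory entry, 46 of 55 members were kept, with 24 called lower, 2 higher and a median difference of -27.6 points. Rpn2, a subunit of the enzyme that attaches sugar chains to new proteins, had 0 reads in Neutrophil and ProNeut ranks of 76.9, 77.9 and 80.8, and it overlaps exons of Mroh8. Its partner Rpn1 ranked 31.6, 36.1 and 32.5 against 84.7, 81.9 and 85.3, and fell by 50.5 ± 2.53 points. Xbp1, the transcription factor that enlarges the secretory apparatus, ranked 31.6, 30.5 and 50.4 against 85.1, 84.5 and 87.1, and fell by 48.1 ± 5.85 points (limma adjusted p 0.00096). These 3 genes were named among called genes without overlap between groups, so that absence of overlap, found for 71% of kept genes, adds nothing. Without overlapping genes the family gave 12 called lower of 31, and without the filter 21 of 55. Ddit3, a stress-induced transcription factor called higher by 75.8 ± 3.26 points, overlaps Mars, and Mcfd2, a cargo receptor, rose by 38.4 ± 4.66 points.

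Translation factors gave 26 lower and 4 higher of 55 kept, tRNA synthetases 8 and 2 of 19, and the proteasome 16 and 0 of 38. The eIF3 subunits Eif3h and Eif3k, which help load the small ribosomal subunit, had 0 reads in Neutrophil replicates 1 and 2 and fell by 55.1 ± 7.10 and 53.0 ± 5.82 points. Psmb1 and Psmb2, of the proteasome core, had 0 Neutrophil reads and fell by 57.3 ± 2.54 and 51.5 ± 3.09 points. Without overlapping genes the lower counts were 12 of 39 for translation factors, 4 of 12 for synthetases and 11 of 30 for the proteasome, all above the 17.1% of genes called lower there. Without the filter they were 19 of 67, 9 of 23 and 18 of 45, beside 15.2% of all genes. Of members above the threshold in some library of both groups, 16 of 43, 3 of 12 and 10 of 30 were lower, beside 23.4% of such genes. The synthetase share there was near that background, and 6 of the 19 kept synthetases passed the filter only through ProNeut. Called the other way, Mars and Aimp2 among synthetase genes and Eef2kmt and Eef2k among translation genes each overlap a gene on the opposite strand.

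Cytosolic ribosomal proteins had 33 of 87 members kept, with 13 called lower and 3 higher and a median of -15.7 points. Rpl7, of the large subunit, ranked 14.7, 13.7 and 24.7 in Neutrophil, 53.1, 55.6 and 56.6 in ProNeut and 88.4 to 91.1 in CMP. It fell by 37.4 ± 3.71 points (limma adjusted p 0.000389). Rpl31 and Rpl5 went up by 84.3 ± 2.10 and 76.2 ± 2.90 points, and they overlap Tbc1d8 and Fam69a. Reads of ribosomal protein genes can be split with their many processed copies, so single values are uncertain. Without overlapping genes only 3 of 28 were called lower, below the 17.1% background. Their median there was -7.51 points, beside -3.62 for all such genes, with 8 lower and 2 higher at an unadjusted limma p under 0.05. Without the filter 15 of 87 were called lower and 4 higher, and 43 and 5 at that unadjusted p. Of these 87 genes, 42 had 0 reads in all Neutrophil libraries. Ribosome biogenesis and nucleolus genes, 24 of 66 kept, did not go one way, with 3 called lower, 5 higher and a median of -0.596 points. Without overlapping genes 2 of 16 were lower and 2 higher, and without the filter 14 of 66 were lower and 5 higher.

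Mitochondrial genes followed. Of 63 nuclear genes of oxidative phosphorylation kept, 33 were called lower and 0 higher, with a median of -22.5 points. Atp5c1, the stalk of ATP synthase, had 0 reads in Neutrophil against ProNeut ranks of 75.9, 81.9 and 81.3, and fell by 67.0 ± 2.92 points. Without overlapping genes the count was 11 of 44 lower and 1 higher, and without the filter 27 of 82 and 1. The TCA cycle and mitochondrial import gave 13 lower and 3 higher of 32, with a median of -18.9 points. Without overlapping genes 7 of 23 were lower and 3 higher, and without the filter 18 of 47 were lower and 0 higher (3 higher at an unadjusted limma p under 0.05).

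Of the 7 mitochondrially encoded genes kept, 4 were called lower. ND2, a subunit of respiratory complex I, ranked 36.4, 13.7 and 29.6 in Neutrophil and 95.2, 97.3 and 97.2 in ProNeut, and fell by 69.9 ± 6.05 points. ND6 was called higher, at 98.8, 99.0 and 98.6 against 14.9, 24.8 and 20.8. The median of the 7 was 58.9 in Neutrophil, 99.2 in ProNeut, 96.7 in CMP and 95.4 in CD115plusGMP. None of the 7 overlaps the opposite strand by the exon rule, and ranked without overlapping genes 4 were again called lower, as were 4 of 13 without the filter.

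Other families of synthesis and metabolism with at least 75% of kept members on the lower side were nuclear lamina, envelope and pores (21 lower and 1 higher of 40), the spliceosome (21 and 1 of 66), lysosome and V-ATPase (18 and 5 of 45), glycolysis with the pentose phosphate pathway and glycogen (13 and 0 of 31), autophagy (5 and 2 of 24) and heme synthesis and iron (3 and 0 of 11). Nup210 and Nup205, of the nuclear pore, had 0 Neutrophil reads and fell by 59.0 ± 2.56 and 52.4 ± 2.76 points. Tfrc, the receptor that takes up iron-loaded transferrin, had 0 Neutrophil reads and fell by 48.1 ± 3.58 points. At an unadjusted limma p under 0.05, 2 proteasome, 5 oxidative phosphorylation, 1 glycolysis and 0 heme genes were higher. The shares called lower in the spliceosome, autophagy and heme families, 31.8%, 20.8% and 27.3%, were near the 26.3% of all kept genes. Without overlapping genes, 11 of 26 nuclear envelope genes and 9 of 34 lysosome genes were called lower, beside 17.1%, and 10 of 47 spliceosome, 1 of 18 autophagy, 4 of 22 glycolysis and 1 of 7 heme genes. Without the filter the lower counts were 20 of 45 for the nuclear envelope, 14 of 55 for the lysosome, 22 of 77 for the spliceosome, 7 of 29 for autophagy, 9 of 41 for glycolysis and 5 of 19 for heme, beside 15.2%.

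**Figure D3:**
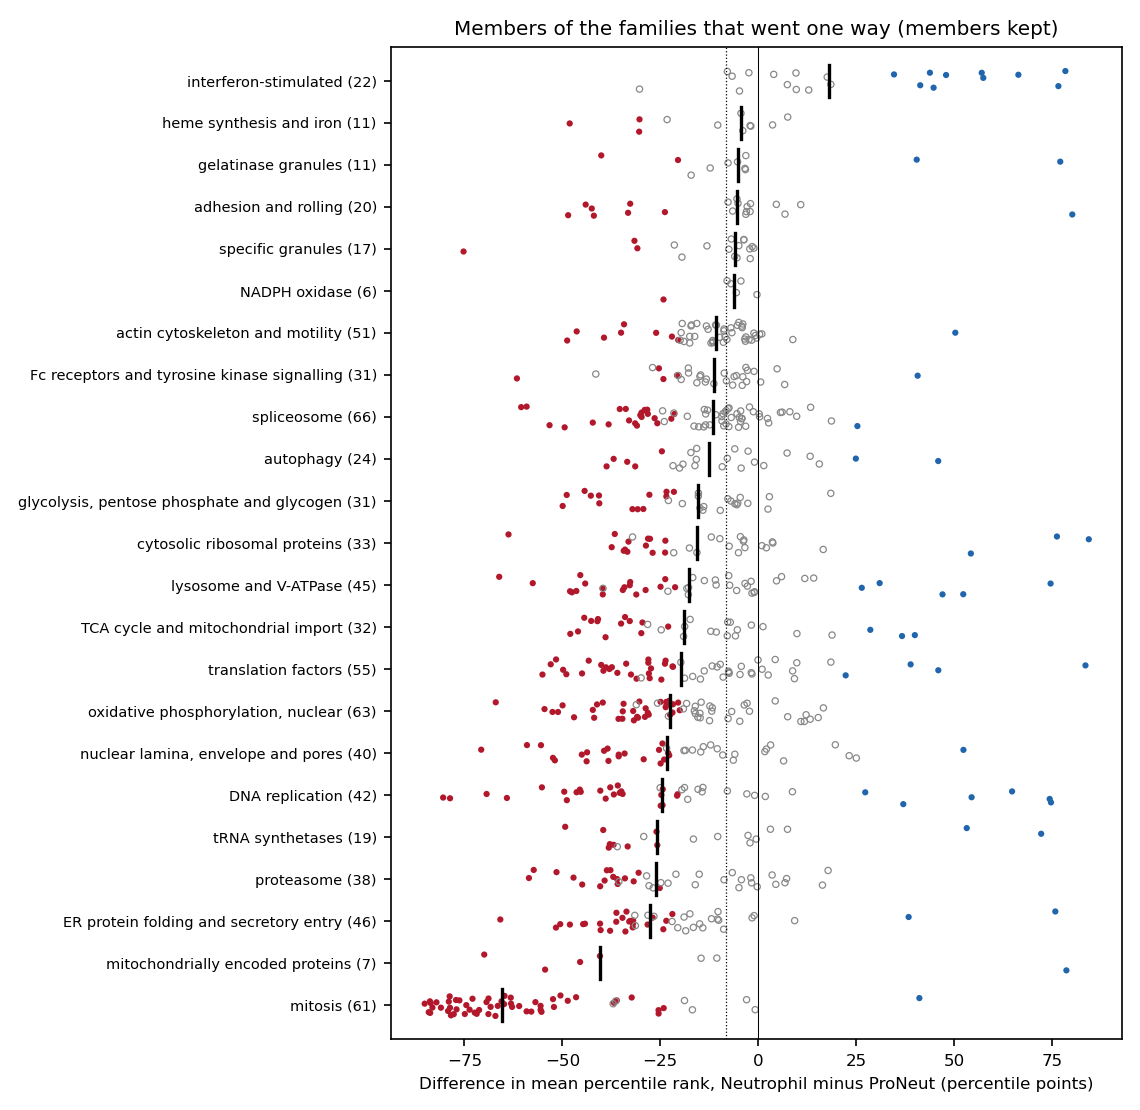
Difference in mean percentile rank, Neutrophil minus ProNeut, for each kept member of the 23 families that went one way; filled red and blue points are genes called lower and higher, open points were not called, bars are family medians and the dotted line is the median of all kept genes, -8.24. Mitosis lies furthest to the left at a median of -65.5, and interferon-stimulated genes are alone on the right at 18.1.

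Most specific granule genes ranked high in both groups. All 17 specific granule genes in the table were kept. Each lay below ProNeut in mean rank, but only 3 were called lower and 0 higher (5 and 0 at an unadjusted limma p under 0.05), and the median difference was -6.03 points, smaller than that of all kept genes. Their median rank was 92.9 in Neutrophil, 99.6 in ProNeut, 12.5 in CMP and 31.1 in CD115plusGMP. Against the progenitors 15 of the 17 were called higher in Neutrophil and 0 lower. Without overlapping genes 3 of 16 were lower, and without the filter 1 of 17. A gene near rank 99.6, the family's ProNeut median, can only move down, so for such members the lower side says little beyond their start. Ceacam10 and Cnnm3, at mean ProNeut ranks of 58.1 and 25.7, had room to rise and also lay lower, but neither was called.

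Ltf, the iron-binding protein lactoferrin, ranked 97.9, 96.3 and 99.5 in Neutrophil and 100 in each ProNeut library, and from 25.1 to 37.6 in the progenitors. Mmp8, neutrophil collagenase, ranked 98.0, 97.3 and 98.6 against 99.6, 99.5 and 99.6, and 12.9 to 15.6 in PreNeut. Neither was called. In RPM the distance was wide: specific granule genes took 4526 to 16646 in Neutrophil, where replicate 3 was highest, and 170370 to 180451 in ProNeut.

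The 3 specific granule genes called lower were Fcnb, Olfm4 and Chil3. Fcnb, the lectin ficolin B, ranked 45.8, 13.7 and 9.69 in Neutrophil, from 4, 0 and 0 reads, and 98.3, 98.3 and 98.2 in ProNeut, and fell by 75.2 ± 9.83 points (limma adjusted p 0.00129). Chil3, a chitinase-like lectin, ranked 66.1, 61.0 and 79.9 against 99.9 throughout, and fell by 30.9 ± 5.19 points. Olfm4, a matrix protein that marks a subset of neutrophils, ranked 66.1, 50.2 and 78.6 against 96.8, 96.5 and 96.5. In PreNeut, Fcnb ranked 99.6 to 99.7 and Chil3 99.9, so both were high in the 2 groups of that library set. Ngp, Camp, Lcn2, Lyz2, Hp and Anxa1, other proteins of this granule or of its membrane, ranked 90.6 or higher in every Neutrophil library and were not called. The other members were not called either but ranked lower in Neutrophil. Cd177 and Pglyrp1 had mean ranks of 92.9 and 86.4 against 99.8 and 99.5, and Itgb2l 79.8 against 99.3 (difference -19.5, limma adjusted p 0.0143, short of the 20 points required). Orm1 had a mean of 62.9 against 84.3, Ceacam10 50.6 against 58.1 and Cnnm3 20.3 against 25.7.

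Gelatinase granules had 11 of 13 members kept, with median ranks of 78.9 in Neutrophil and 88.4 in ProNeut and 2 called in each direction. By limma, without overlapping genes 0 of 10 were lower and 1 higher (3 and 1 at an unadjusted p under 0.05), and without the filter 0 of 13 were lower and 2 higher (4 and 3 unadjusted). Mmp9, gelatinase B, ranked 96.2, 94.0 and 98.4 against 99.6, 99.6 and 99.5 and was not called (difference -3.40, limma adjusted p 0.249). Fpr1 and Fpr2, receptors for formylated bacterial peptides, fell by 40.1 ± 11.2 and 20.5 ± 2.89 points. The Fpr1 call was lost without Neutrophil replicate 3 or any ProNeut library, and that of Fpr2 without Neutrophil replicate 1. Slc11a1, a metal transporter of phagosomes, was called higher at 76.4, 36.1 and 83.9 against 34.2, 17.0 and 24.0, a call lost without Neutrophil replicate 1 or 3 or any ProNeut library. Arg2, the other gene called higher, overlaps Vti1b.

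For the NADPH oxidase, which makes superoxide, the 6 members had a median rank of 92.5 in Neutrophil, 99.2 in ProNeut, 24.4 in CMP and 76.5 in CD115plusGMP. Only Ncf4, a cytosolic regulator, was called lower, at 66.1, 70.6 and 85.8 against 98.3, 98.5 and 98.4 (limma adjusted p 0.0111). Cybb, the catalytic subunit, ranked 91.3, 87.6 and 96.6 against 99.8 in each ProNeut library and was not called (limma adjusted p 0.0655). The limma count lower was 0 of 5 without overlapping genes and 0 of 6 without the filter (1 in each at an unadjusted p under 0.05). Against the progenitors, all 6 were called higher in Neutrophil.

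Azurophilic granule genes, made earliest in the lineage, did not go one way among the kept members. Of the 12 that were measured, 6 were kept, with 2 called in each direction, 1 in each of 4 without overlapping genes and 2 in each of 12 without the filter. Over the 12 unfiltered genes 9 lay below ProNeut in mean rank, beside 55.6% of all genes with a symbol. At an unadjusted limma p under 0.05, 6 of the 12 were lower and 2 higher. Ms4a3, a membrane protein of committed granulocyte progenitors, ranked 14.7, 13.7 and 24.7 in Neutrophil, 56.0, 62.5 and 59.4 in ProNeut and 92.7 to 93.9 in PreNeut. Mpo, myeloperoxidase, had 3, 0 and 0 reads in Neutrophil and 278, 1164 and 176 in ProNeut, which span ranks 13.8 to 77.4, and it was not called. Srgn, the proteoglycan that packs granule proteins, rose, at 87.6, 84.6 and 91.7 against 28.3, 36.4 and 39.7 (difference 53.2 ± 3.92, limma adjusted p 0.000106). Prss57, a serine protease called higher by 59.0 ± 2.13 points, overlaps Fstl3.

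Among families of movement and sensing, 3 had higher medians in ProNeut and went to the lower side. Actin cytoskeleton and motility genes had median ranks of 86.8 and 97.7, with 8 of 51 called lower and 1 higher. Fc receptor and tyrosine kinase signalling genes had medians of 75.8 and 92.8, with 4 of 31 lower and 1 higher, and adhesion and rolling genes 84.0 and 93.4, with 7 of 20 lower and 1 higher. The first 2 of these shares called lower are under the background of 26.3%. Without overlapping genes 2 of 35 actin, 0 of 25 signalling (4 at an unadjusted limma p under 0.05) and 4 of 14 adhesion genes were lower, and without the filter 3 of 53, 2 of 33 and 5 of 24. Chemoattractant and cytokine receptors did not go one way, with median ranks of 72.8 and 71.8 and 3 higher and 5 lower of 29. Over genes without overlap 4 of 26 receptors were higher and 2 lower, and without the filter 2 of 36 in each direction. Fcgr2b, the inhibitory receptor for antibody complexes, fell by 61.6 ± 3.49 points, and it overlaps Gm38204. Arpc4, of the complex that branches actin filaments, fell by 48.8 ± 5.72 points. Against the progenitors 19 of 51 actin genes, 23 of 31 signalling genes and 13 of 20 adhesion genes were called higher in Neutrophil.

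**Figure D4:**
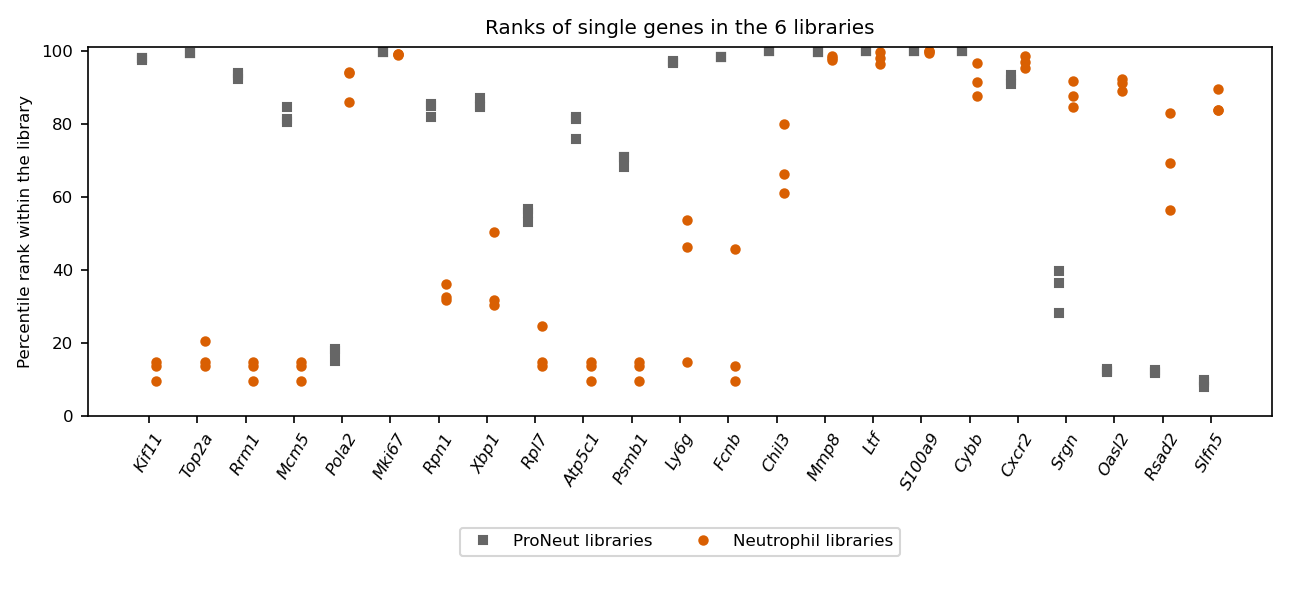
Percentile rank of 23 genes in each ProNeut library (squares) and each Neutrophil library (circles). From left to right are genes of division, synthesis and mitochondria, then granule and effector genes, then interferon-stimulated genes; Mki67 is the division gene that stays near 99 in all 6 libraries.

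Interferon-stimulated genes, which include antiviral sensors, nucleotide enzymes and GTPases, were the family on the higher side. Of the 36 that were measured, 22 were kept, 17 above and 5 below ProNeut in mean rank, with 10 called higher and 0 lower (11 and 2 at an unadjusted limma p under 0.05). The median difference was 18.1 points, beside -8.24 for all kept genes. The count was 12 of 36 without the filter, beside 15.7% of all genes, and 9 of 19 without overlapping genes. Of the 17 members above the threshold in some library of both groups, 5 were called higher, beside 11.6% of such genes. The other 5 kept members passed the filter only through Neutrophil, and each of them was called higher. Median ranks were 65.8 in Neutrophil, 37.8 in ProNeut, 20.5 in PreNeut, 27.9 in CMP and 33.4 in CD115plusGMP. Against the progenitors 14 of the 22 were called higher in Neutrophil and 0 lower.

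Oasl2, an oligoadenylate synthetase-like protein, ranked 92.2, 89.0 and 91.0 in Neutrophil from 73, 58 and 128 reads, and 12.3, 12.8 and 12.1 in ProNeut. The rise was 78.4 ± 2.21 points (limma adjusted p 2.04e-06), and in CMP and CD115plusGMP it ranked 10.8 to 61.7. Rsad2, the antiviral enzyme viperin, ranked 69.3, 56.4 and 82.8 against 12.5, 11.7 and 12.1, a rise of 57.4 ± 6.74 points (limma adjusted p 0.000824), and 4.90 to 19.8 in the progenitors. Neither overlaps a gene on the opposite strand, and both passed the filter only through Neutrophil. Slfn5, of the schlafen family, and Parp9, which works with an antiviral ubiquitin ligase, rose by 76.6 ± 2.64 and 66.4 ± 2.10 points. They overlap Slfn5os and Dtx3l, and Parp9 also ranked 82.1 to 86.8 in the progenitors.

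The family was uneven. Slfn4 ranked a mean of 95.7 against 98.1 and was not called, and Ddx58, an RNA sensor named here after its values were seen like the other members of this paragraph, had the lowest difference at -30.3 (limma adjusted p 0.104). Isg15, Ifit1, Ifit3, Mx1 and Mx2 did not pass the filter. In summed RPM the groups overlapped, at 1510 to 4099 in Neutrophil and 1875 to 2070 in ProNeut, so the higher ranks were not matched by a higher share of reads in each library.

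Promoter stretches of 2 of the named members are shown because they hold TTTCNNTTTC, a form of the element bound by interferon-activated factors, on either strand. The capitals mark the match, which in Slfn5 is the reverse complement, the motif on the other strand. The windows are chr12:26456523-26456612 on the minus strand for Rsad2 and chr11:82951907-82951996 on the plus strand for Slfn5, in the same RefSeq build.
Rsad2: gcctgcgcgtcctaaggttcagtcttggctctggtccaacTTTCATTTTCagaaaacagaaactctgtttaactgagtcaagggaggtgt
Slfn5: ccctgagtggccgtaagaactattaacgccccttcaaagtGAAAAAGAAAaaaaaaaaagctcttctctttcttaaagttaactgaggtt
Over the 250 bases before the start, the motif was found for 14 of 27 members with a RefSeq promoter (51.9%), against 3.46% of 27025 genes. It was found for 5 of the 7 members called higher that have one. Again this describes letters and shows no binding.

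Genes of the NF-kappa B and immediate early family, induced within minutes of stimulation, had 11 of 31 called higher and 3 lower, with 19 on the higher side, short of the share set for going one way. Without overlapping genes 7 of 21 were higher and 1 lower, and without the filter 9 of 42 and 2. Pattern recognition genes, with median ranks of 62.9 and 43.7, had 10 higher and 6 lower of 27 (37% and 22.2%), beside 21.7% and 26.3% of all kept genes. Without overlapping genes they gave 9 and 2 of 19, and without the filter 5 and 2 of 37. The mature neutrophil list had 8 higher and 3 lower of 36, where 22.2% higher is about the background. It gave 9 and 1 of 36 without overlapping genes and 7 and 1 of 40 without the filter. Il1b, the inflammatory cytokine interleukin 1 beta, is named here after its values were seen: it ranked 93.4, 91.5 and 95.3 in Neutrophil and 10.9, 10.5 and 11.4 in ProNeut, a rise of 82.5 points, and 4.90 to 27.7 in the progenitors. Mitochondrial ribosomal proteins gave 7 higher and 1 lower of 34 kept, but 4 and 26 of 78 without the filter, so no direction is given for them. The other families that did not go one way were Rab GTPases (3 higher and 10 lower of 36), the leukotriene and prostaglandin pathway (2 and 4 of 13), cholesterol synthesis (3 and 4 of 13), histones (2 and 5 of 9) and antiproteases (3 and 0 of 7 by limma, 3 and 2 at an unadjusted p under 0.05). Without the filter, Rab genes gave 8 higher and 6 lower of 62 and histones 8 and 4 of 48, beside 15.7% and 15.2%. Of those histones 38 lay above ProNeut in mean rank, though 27 had 0 reads in all Neutrophil libraries. Unfiltered leukotriene, cholesterol and antiprotease counts were 3 and 5 of 18, 3 and 6 of 26 and 1 and 0 of 17. Without overlapping genes, Rab genes gave 1 and 3 of 25 and histones 2 and 2 of 5. The rest gave 1 and 1 of 8, 2 and 2 of 11 and 2 and 0 of 6.

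The largest single differences were listed among called genes whose groups did not overlap, without exon overlap on the opposite strand and with a mean log2 CPM of at least 6 in the higher group, which leaves out Ube2c. Those lower in Neutrophil were Kif11, Cenpf, Smc2, Tpx2, Top2a, Cenpe, Racgap1 and Rrm1, all of the cell cycle. Those higher were Nacad, Prr33, Mmp2, Jph3, Il1bos, Fndc9, Ceacam18 and Ttc19, with differences of 92.1 to 94.9 points, and none belongs to a family above. Prr33 (chr7:142491074-142506771, minus strand) ranked 99.7, 99.7 and 99.8 in Neutrophil, from 6675 reads in all, and 5.58, 6.60 and 4.3 in ProNeut, from 14. Its body overlaps that of Lsp1 on the plus strand, an actin-binding protein of leukocytes, which ranked a mean of 98.6 in Neutrophil and 98.3 in ProNeut. The bodies of Il1bos, Fndc9 and Ttc19 likewise overlap Il1b, Cyfip2 and Ncor1 on the opposite strand, though they share under 50 exon bases. For Nacad, Ceacam18 and Jph3 the nearest coding gene on the opposite strand lies 1079, 1775 and 2037 bases away. Mmp2, a matrix protease, has none nearer than Ces1a at 166794 bases. The part of opposite-strand reads in these differences was not tested.

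Marker lists of other marrow cells were read in the same libraries, in RPM. Erythroid markers took 38.7 to 78.2 in Neutrophil and 166 to 189 in ProNeut, and 11 of the 14 were at 0 in all Neutrophil libraries, among them Hba-a1 and Hbb-bs. Monocyte and macrophage markers took 38.3 to 322 against 649 to 734, with C1qb, C1qc and Irf8 at 0. Stem and multipotent progenitor markers took 113 to 166 against 234 to 277. Higher in Neutrophil were megakaryocyte and platelet markers, at 332 to 415 against 79.4 to 106, with Pf4, Ppbp and Itga2b at 0, and B lymphoid markers, at 49.2 to 76.5 against 3.41 to 5.08, with Cd22 at 0. Dendritic cell, T and NK, and basophil lists took 10.5 to 123, 7.03 to 21.5 and 166 to 311 in Neutrophil, against 33.2 to 34.1, 4.19 to 5.52 and 441 to 505, and stroma markers 0 to 1.95 against 54.9 to 60.2. Their part in the family differences was not tested.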

How the data were processed

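RNA sequencing libraries were prepared with the Universal Plus mRNA-Seq kit, per the labels. The authors deposited 1 table of log2 CPM (reads relative to the library's size). Per the submitters' processing notes they used FastQC 0.11.7, featureCounts 1.22.2 and edgeR 1.30.5 on GRCm38 (mm10). Aligner and annotation, as well as the strand setting of the counting, are not given here by the labels. The deposited log2 values undo to whole reads with 0.5 added, at one scale for each library (100% of values, within 0.001 reads), and the reads so recovered served for description only.

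Within each of the 6 libraries, kept genes were ranked as percentiles with ties averaged. Group means were fitted with limma 3.58.1 in R 4.3.3 (lmFit, eBayes without trend, 2-sided, 3 against 3), with Benjamini-Hochberg adjustment over 7192 genes. A second fit over all 15 libraries set Neutrophil against the mean of CMP and CD115plusGMP. The script was tested on simulated data. Replicates differed by more than sampling noise (chi-square per degree of freedom 4.18 to 12.7). Counts of 0 and low counts limit precision to counting error and say nothing of preparation.

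Families were 37 lists from textbook knowledge, and 9 more lists of other cells. A family went one way when at least 5 members were kept with 75% on one side. The members and lists were chosen with earlier results of these data known. Named genes were, per such family, the 4 largest called differences in its direction without overlap between groups and up to 2 called the other way, the 8 largest increases and decreases among called genes with a mean log2 CPM of at least 6 in the higher group and without exon overlap on the other strand (predicted symbols passed over), neutrophil markers, and oxidase and granule genes. Some of these genes are not reported here. Coordinates and strands are from GENCODE M21 (GRCm38, first base numbered 1) and promoters from RefSeq (GRCm38.p6). Alternatives were other scales, filters and thresholds, ProNeut reads thinned to the Neutrophil depth, genes with opposite-strand overlap left out, a replicate block and leaving out each library.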

Additional observations from a re-analysis of the deposited data

Results flagged for a closer look

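Of the reads in the table, 68% in Neutrophil replicate 1, 69.5% in replicate 2 and 63.5% in replicate 3 fell on the 503 identifiers without a symbol, which the rank comparison does not use. In ProNeut the share was 0.11% to 0.146%, and in CMP and CD115plusGMP, of the same library set as Neutrophil, it was 55.6% to 61.7%. These reads are a signal outside the genes compared, and what they are was not analysed here.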

How the results depend on the processing

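Without genes overlapping the opposite strand, calls fell from 3448 to 1539 (740 higher, 799 lower) over 4671 genes, and ER folding genes called lower from 24 to 12 of 31. A threshold of 30 points left 1243 genes lower. With log2 CPM above 5 required, 4 interferon-stimulated genes were called higher, of fewer tested. Retnlg, not called by rank, changed sign on median-centred log2 CPM (1.89, limma adjusted p 0.00521); the cause was not tested. Leaving out 1 library gave 2909 to 3682 calls, 1477 to 1629 higher and 1428 to 2053 lower, with 51 to 56 mitosis and 20 to 27 ER genes lower and 9 to 12 interferon-stimulated genes higher. With ProNeut thinned, 3187 of the 3312 calls were shared with the main 3448. Without the filter 2414 of the 3448 were shared, and without overlapping genes 1393 of the 1996 still tested. No shared call changed sign in any setting run. Of 51 family counts, 36 moved by over 1.5 times without overlapping genes and 17 without the filter. Same-numbered libraries did not deviate together (r -0.0153, 0.0187 and 0.00744), and with a replicate block 3351 genes were called (1546 higher, 1805 lower), with 53 mitosis, 23 ER and 10 interferon-stimulated genes. Neutrophil depth, at a median of 5 to 14 reads per kept gene, limits how far a low rank can be read.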

Other observations

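The myeloid transcription factor list, which did not go one way, had 5 of 21 kept members called higher (23.8%, beside 21.7% of all kept genes) and 2 lower (9.52%, beside 26.3%). Without the filter 5 of 26 were higher and 2 lower, and without overlapping genes 2 of 11 and 0. Gfi1, a repressor needed for granulocyte formation, and Runx1 were lower by rank (differences -60.1 and -46.5), and Cebpb, a factor of emergency granulopoiesis, was higher (63.3). All 3 overlap a gene on the opposite strand, and all genes of this section were chosen after their values were seen. Among cell death regulators, 6 of 19 were called lower (31.6%) and 4 higher (21.1%), shares near those of all kept genes. Without the filter 5 of 27 were lower and 6 higher, and without overlapping genes 4 of 14 and 3. Casp8, an initiator caspase, differed by -43.3 points, Xiap, which inhibits caspases, by -46.3, and Birc5, survivin, also a mitotic protein, by -74.9. Fas, a death receptor, and Pmaip1, a killer member of the BCL2 group, differed by 38.6 and 52.3.

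Innate sensors moved both ways. Nod2, Clec4d, Clec4n, Nlrp3 and Clec7a, receptors for microbial products or their inflammasome, were called higher by 90.1, 78.8, 65.0, 56.0 and 50 points, and Clec4a2 and Clec12a, inhibitory lectin receptors, differed by -46.9 and -32.9. Immediate early genes gave Ccl3, a chemokine, at 88.4, Dusp1, a phosphatase of stress kinases, at 66.5 and Fos at 57.9, while Nfkbia, the inhibitor of NF-kappa B, and Tnf differed by -29.5 and -28.3. None of these sensors or immediate early genes shares 50 bases of exon with the opposite strand.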
